A study of Mus musculus with 9 samples.

Results

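The genes described here carry glucose into the cell, break it down to pyruvate, turn pyruvate into lactate or back, and govern the entry of pyruvate into the mitochondrion. They are Slc2a1, Hk1, Hk2, Pfkl, Pfkp, Pgk1, Pkm, Ldha, Ldhb and Pdk1, chosen by name, and all 10 had a row among the 55357 Ensembl gene identifiers of the deposited table and passed the filter on low counts with 15046 genes. Glycolysis traps glucose as a phosphorylated sugar, commits it at the phosphofructokinase step and yields ATP and pyruvate in the cytosol. Lactate dehydrogenase then interconverts pyruvate and lactate, while pyruvate dehydrogenase, which pyruvate dehydrogenase kinases switch off, sends pyruvate to the mitochondrion. Keratinocytes are known for making lactate even with oxygen present, and hair follicle stem cells for the use of lactate dehydrogenase.

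Levels were read in 3 populations of keratinocytes sorted from the back skin of C57BL/6 mice at postnatal day 60, with 3 RNA-seq libraries each. All mice had the genotype TNC-CREER; tdTomato, in which the promoter of the Tenascin-C gene drives a tamoxifen-inducible Cre that switches on a red reporter, and all had received 2 tamoxifen injections (100 µg per g body weight) on days 51 and 52. The epithelial protein EPCAM and the basal protein integrin α6 were required of every population. Touchdome cells, from the patches of epidermis that house Merkel cells, carried SCA1 and the reporter. IFE cells, from the interfollicular epidermis between follicles, carried SCA1 without the reporter, and HF cells, from the hair follicle, carried neither. A Touchdome cell is thus any cell with EPCAM, integrin α6 and SCA1 that carried the reporter. The reporter marks a Tnc promoter active around the injections, in the cell itself or in a cell it descends from. Whether the libraries of a group came from different mice is not in the labels, and p-values rest only on their spread, which may be technical.

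The members fell into 3 patterns, which the promoters of 5 of them introduce. Slc2a1, Pgk1 and Ldha are shown for genes that were lower in HF, and Hk2 and Ldhb for the pair that was higher there than in IFE. The sequences are the 250 bases before the transcription start on the gene's own strand, 5′ to 3′, from RefSeq with build GRCm38.p6. Capitals mark ACGTG or its reverse complement CACGT, 1 form of the core letters of the element bound by the hypoxia-inducible factors. Overlapping matches were joined into 1 place. The form with G first, GCGTG, was neither marked nor counted.
Slc2a1 (chr4:119108495-119108744, + strand): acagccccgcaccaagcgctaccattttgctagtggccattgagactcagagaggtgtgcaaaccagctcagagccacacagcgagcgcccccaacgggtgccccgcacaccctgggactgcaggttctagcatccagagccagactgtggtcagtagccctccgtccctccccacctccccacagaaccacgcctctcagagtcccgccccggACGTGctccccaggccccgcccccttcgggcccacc
Pgk1 (chrX:106186850-106187099, + strand): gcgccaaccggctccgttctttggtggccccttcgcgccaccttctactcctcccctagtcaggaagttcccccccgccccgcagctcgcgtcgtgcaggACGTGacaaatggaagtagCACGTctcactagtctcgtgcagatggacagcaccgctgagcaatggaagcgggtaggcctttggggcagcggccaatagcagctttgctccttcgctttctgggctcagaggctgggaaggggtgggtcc
Ldha (chr7:46845554-46845803, + strand): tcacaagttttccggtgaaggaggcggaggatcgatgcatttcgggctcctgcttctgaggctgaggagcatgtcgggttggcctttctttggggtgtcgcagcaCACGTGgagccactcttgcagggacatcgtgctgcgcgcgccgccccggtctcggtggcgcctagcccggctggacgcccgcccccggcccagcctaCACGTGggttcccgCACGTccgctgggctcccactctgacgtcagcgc
Hk2 (chr6:82774455-82774704, - strand): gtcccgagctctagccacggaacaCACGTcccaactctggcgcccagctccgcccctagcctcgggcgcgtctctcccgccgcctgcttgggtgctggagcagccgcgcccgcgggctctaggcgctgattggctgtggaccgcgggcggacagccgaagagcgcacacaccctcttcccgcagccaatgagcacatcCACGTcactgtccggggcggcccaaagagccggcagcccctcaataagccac
Ldhb (chr6:142507958-142508207, - strand): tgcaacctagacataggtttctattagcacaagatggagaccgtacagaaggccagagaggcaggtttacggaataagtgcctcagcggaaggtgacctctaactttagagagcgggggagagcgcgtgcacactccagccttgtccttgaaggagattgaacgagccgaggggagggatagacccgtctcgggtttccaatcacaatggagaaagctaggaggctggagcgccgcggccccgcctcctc

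The marked letters stood in 5 of the 14 RefSeq promoters of the members, 1 each of Slc2a1, Hk2, Pgk1, Pkm and Ldha. They stood in 16.6% of 32841 RefSeq promoters of the same length. Pkm and Ldha each have another promoter in that table without the letters. Ldha held 3 places, at 145, 48 and 34 bases before the start, and 0.256% of promoters held 3 or more. The first and second of these spell the palindrome CACGTG, which is also the letters of the E-box bound by Myc proteins and occurred in 6.02% of promoters. Pgk1 had places at 150 and 131 bases before the start and Hk2 at 226 and 52 bases, and 1.95% of promoters held 2 or more. Slc2a1 had 1 place, 36 bases before the start. The letters were thus found in genes of opposite direction between HF and IFE, Ldha and Hk2, and were not found in the shown window of Ldhb. They were also absent from the windows of Pfkl and Pfkp, which are not shown and were lower in HF. The uncounted form GCGTG does occur in the windows of Ldhb, Pfkl and Pfkp, so absence here holds for the marked letters only.

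Total expected counts were 9295059 to 28249763 per library. Touchdome replicate 3 stood apart from the other Touchdome libraries on the first principal component, and IFE replicate 2 from the other IFE libraries on the second. Summed follicle keratinocyte markers were 314 to 736 CPM in Touchdome, 175 to 182 CPM in IFE and 2942 to 2983 CPM in HF. Of 5 Merkel cell markers, Atoh1 and Sox2 were at 0 in every library and the sum was 1.33 to 9.53 CPM in Touchdome, 0.114 to 0.263 CPM in IFE and 1.90 to 2.82 CPM in HF. Krt8, the 1 of these with enough counts to test, was higher in Touchdome than in IFE (adjusted p = 0.0225, edgeR) and in HF than in IFE (0.0030). Summed fibroblast markers, with Lum at 0 in Touchdome and HF, were 45.3 to 90.2 CPM in Touchdome, 0.844 to 2.95 CPM in IFE and 62.2 to 87.1 CPM in HF. Markers of skeletal muscle and of red blood cells, both rich in glycolytic enzymes, were at or near 0, with sums of at most 1.91 and 2.23 CPM in any library.

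Relative to IFE and Touchdome, the follicle population had less mRNA for the glucose carrier Slc2a1 and for the enzymes Pfkl, Pfkp, Pgk1, Pkm and Ldha, but more for Ldhb, and relative to IFE also more for Hk2. Between HF and IFE, 6 of the 10 genes were lower in HF and 2 were higher (edgeR, adjusted p under 0.05), where 16.0% of all genes tested were lower, 17.1% higher and 33.0% changed in either direction. Between Touchdome and HF, 6 were higher in Touchdome and 1 was lower, against 11.8% higher, 12.8% lower and 24.6% in either direction of all genes. Between Touchdome and IFE, 0 of the 10 passed, where 1.30% of all genes did. That count was 0 also at an unadjusted p under 0.05, with DESeq2 and with limma on TPM. The comparisons with HF share the same HF libraries. In sorted bulk RNA, fewer cells of a type and less RNA per cell cannot be told apart.

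**Figure D1:**
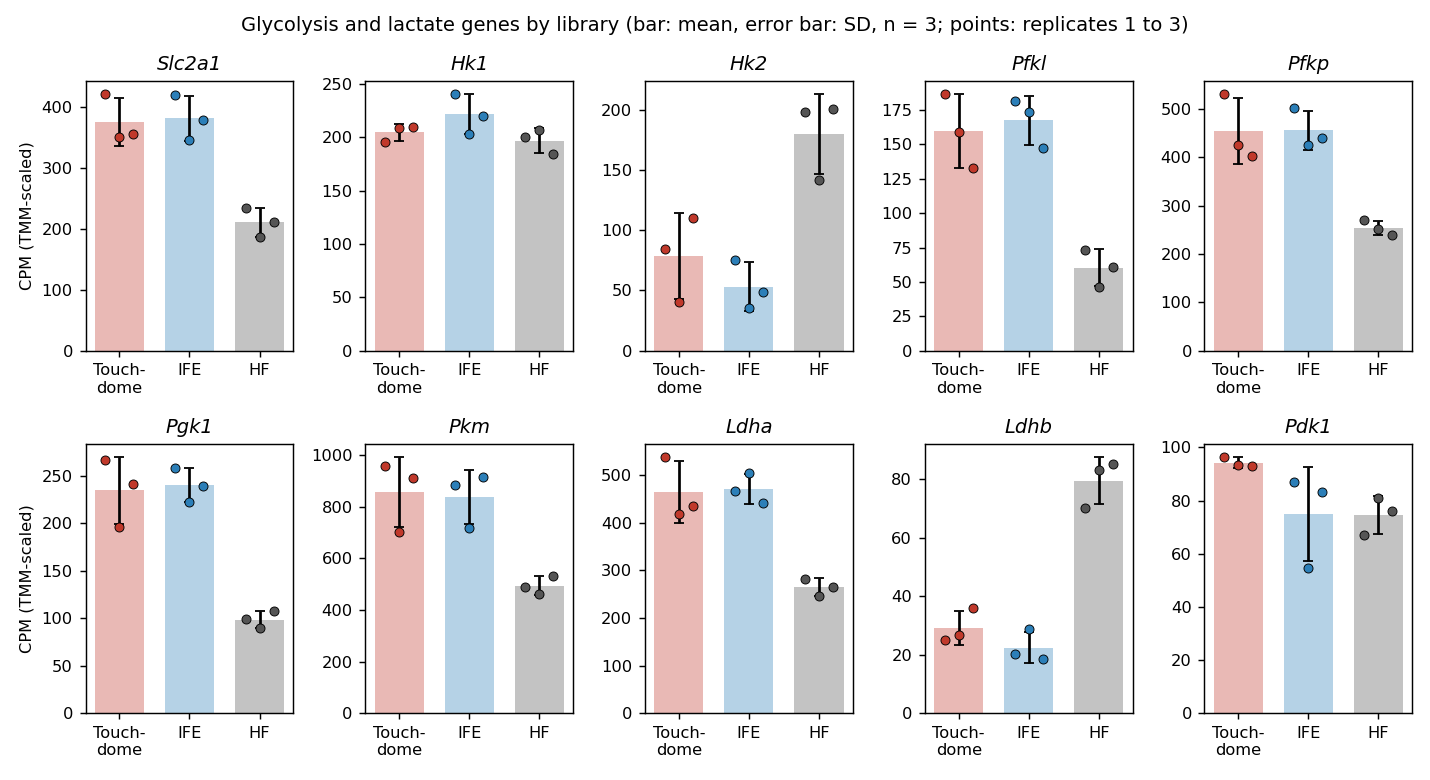
Level of each of the 10 genes in CPM at TMM-scaled library size, one panel per gene and each panel with its own axis from 0. Points are libraries, bars are means and error bars are SD (n = 3); 6 genes are low in HF, Hk2 and Ldhb are high there, and Hk1 and Pdk1 are nearly level.

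The median log2 fold change of the 10 genes was 0.80 for Touchdome minus HF, against -0.0038 over all genes tested, and -0.80 for HF minus IFE, against 0.0042. For Touchdome minus IFE it was -0.013 against 0.0048. With groups ranked library by library, 7 of the genes were higher and 2 lower in every Touchdome library than in every HF library, where 21.2% of all genes were higher and 22.2% lower in that way, 43.4% together. In HF against IFE the counts were 2 higher and 6 lower, against 24.6% and 23.0% of all genes, 47.6% together.

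Per length, in TPM, Pkm and Ldha were the most abundant of the members in all 3 groups. Pkm stood at 647 ± 94.4 TPM in Touchdome, 575 ± 105 TPM in IFE and 400.5 ± 24.9 TPM in HF (SD, n = 3 each). Ldha followed at 579 ± 73.8, 532 ± 34.2 and 353 ± 31.1 TPM. Over the 9 libraries they ranked 235th and 254th of the 15046 genes by mean TPM. Pfkp, Slc2a1 and Pgk1 formed a middle tier with means of 188 to 215 TPM, and Hk1, Ldhb, Pfkl, Pdk1 and Hk2 lay at 88.7, 69.1, 61.9, 42.2 and 33.0 TPM. The order within the lower tier was not the same in each group, since Ldhb at 131 ± 8.19 TPM exceeded Hk1, Pfkl, Pdk1 and Hk2 in HF but fell below Hk1, Pfkl and Pdk1 on the mean in IFE. In HF Ldhb also exceeded Pgk1 of the middle tier, at 105 TPM. The 10 genes summed to 2237 ± 235 TPM in Touchdome, 2031 ± 241 TPM in IFE and 1499 ± 81.2 TPM in HF.

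Glucose entry was read from Slc2a1 (ENSMUSG00000028645), which encodes GLUT1, the basal glucose carrier of epidermis, in CPM, the counts of a library scaled to a common total. Slc2a1 stood at 421, 349.9 and 355 CPM in the 3 Touchdome libraries, 419, 345 and 379 CPM in IFE and 234, 186 and 211 CPM in HF. All HF libraries lay below all others, and Touchdome and IFE overlapped. The log2 fold change was 0.83 ± 0.13 (SE) for Touchdome minus HF (adjusted p = 0.000446, edgeR) and -0.86 ± 0.13 for HF minus IFE (adjusted p = 0.000243).

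Hexokinases phosphorylate glucose and so hold it in the cell. Hk1 (ENSMUSG00000037012) encodes the widely expressed form and Hk2 (ENSMUSG00000000628) the form known as inducible. The Touchdome libraries held 195, 209 and 209 CPM of Hk1, the IFE libraries 240.5, 203 and 220.0 CPM and the HF libraries 199.9, 207 and 184 CPM. The 3 groups of libraries overlapped, and no comparison of Hk1 passed, with a log2 fold change of -0.17 ± 0.11 for HF minus IFE (adjusted p = 0.256, edgeR). For Hk2, levels were 198, 142 and 201 CPM in HF, 75.5, 35.7 and 48.5 CPM in IFE and 84.7, 40.0 and 111 CPM in Touchdome. The HF libraries were all above the rest, and within Touchdome replicate 2 lay at the level of IFE while replicate 3 was highest.

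The HF libraries exceeded those of IFE in Hk2 by 1.76 ± 0.40 on the log2 scale (SE), with an adjusted p of 0.0111 in edgeR. Against HF, Touchdome stood at -1.20 ± 0.40 on the log2 scale for Hk2, which missed the threshold (adjusted p = 0.063). It passed with DESeq2 (adjusted p = 0.0187), with limma on TPM (0.0117 and 0.0145 by pseudocount) and without Touchdome replicate 3, at -1.53 (0.0314, edgeR), where the count of members called became 8. Hk2 made up 39.1 ± 5.14% of the summed Hk1 and Hk2 TPM in HF, 20.9 ± 7.94% in Touchdome and 15.9 ± 2.38% in IFE (SD, n = 3 each). The HF libraries, at 33.4% to 43.3%, stood above every Touchdome library, at 12.0% to 27.1%.

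Phosphofructokinase is the committed step of glycolysis, and Pfkl and Pfkp encode its liver-type and platelet-type subunits. Levels of Pfkl were 187, 159 and 133 CPM in Touchdome, 182, 174 and 148 CPM in IFE and 73.4, 46.7 and 60.7 CPM in HF. All HF libraries of Pfkl (ENSMUSG00000020277) lay below all others. The log2 fold change was 1.40 ± 0.17 for Touchdome minus HF (SE, adjusted p = 8.11e-05, edgeR) and -1.47 ± 0.17 for HF minus IFE (adjusted p = 3.32e-05), the greatest difference of the members that were lower in HF. Pfkp stood at 531, 426 and 403 CPM in the 3 Touchdome libraries, 501, 424 and 440.3 CPM in IFE and 269, 251 and 239.8 CPM in HF. Pfkp (ENSMUSG00000021196) split the libraries in the same way, with log2 fold changes of 0.84 ± 0.13 for Touchdome minus HF (adjusted p = 0.000446) and -0.85 ± 0.13 for HF minus IFE (adjusted p = 0.000277).

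Although both subunits were lower in HF, Pfkp kept a near-constant share of the summed Pfkl, Pfkm and Pfkp TPM. The share was 71.6 ± 0.969% in Touchdome, 72.6 ± 1.59% in IFE and 72.9 ± 1.43% in HF, and the 3 groups overlapped. Pfkm, the muscle-type subunit and no member, was 0.46 ± 0.13 higher in HF than in IFE on the log2 scale (adjusted p = 0.0129, edgeR), and that call was lost without IFE replicate 1 (0.0551) or HF replicate 3 (0.0535).

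Lower glycolysis was read from Pgk1, whose enzyme makes the first ATP of the pathway, and Pkm, whose enzyme makes pyruvate and the second. The Touchdome libraries held 267, 196 and 241 CPM of Pgk1, the IFE libraries 258, 223 and 239.5 CPM and the HF libraries 99.0, 89.9 and 107 CPM. The highest HF library of Pgk1 (ENSMUSG00000062070) was below the lowest of the other groups. The log2 fold change was 1.25 ± 0.13 for Touchdome minus HF (SE, adjusted p = 2.25e-05, edgeR) and -1.28 ± 0.13 for HF minus IFE (adjusted p = 1.13e-05). For Pkm, levels were 489.8, 460.2 and 533 CPM in HF, 882, 719 and 912 CPM in IFE and 957, 702 and 912 CPM in Touchdome. Pkm (ENSMUSG00000032294), of which the table gives a single value for all splice forms, was also lower in every HF library, with log2 fold changes of 0.79 ± 0.15 for Touchdome minus HF (adjusted p = 0.00151) and -0.76 ± 0.15 for HF minus IFE (adjusted p = 0.00142). Summed expected counts of Pfkp, Pgk1, Pkm and Ldhb were not whole numbers, as can occur where reads are divided between loci, and whether near-identical copies took part was not tested, so these values are uncertain to that extent.

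The genes of lactate dehydrogenase differed in opposite directions. Ldha encodes the subunit known to favour the making of lactate, and Ldhb the subunit known to favour its use. Levels of Ldha were 539, 419 and 436 CPM in Touchdome, 468, 504 and 442 CPM in IFE and 283, 246 and 266 CPM in HF. Ldhb stood at 25.0, 26.9 and 35.9 CPM in the 3 Touchdome libraries, 20.2, 28.7 and 18.5 CPM in IFE and 70.1, 83.0 and 85.2 CPM in HF. HF libraries were the lowest for Ldha (ENSMUSG00000063229) and the highest for Ldhb (ENSMUSG00000030246), with no overlap, while Touchdome and IFE overlapped for both.

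Ldha was lower in HF, with a log2 fold change of 0.81 ± 0.13 for Touchdome minus HF (SE, adjusted p = 0.000453, edgeR) and -0.83 ± 0.13 for HF minus IFE (adjusted p = 0.000249). Ldhb was higher in HF, with -1.44 ± 0.19 for Touchdome minus HF (adjusted p = 0.000109) and 1.82 ± 0.19 for HF minus IFE (adjusted p = 1.09e-05), a mean of 3.54-fold. As a share of summed Ldha and Ldhb TPM, Ldhb was 27.1 ± 2.70% in HF, 7.32 ± 1.75% in Touchdome and 5.55 ± 0.917% in IFE (SD, n = 3 each). Ldha therefore stayed the major transcript in every library, where the highest Ldhb share was 29.4%.

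**Figure D2:**
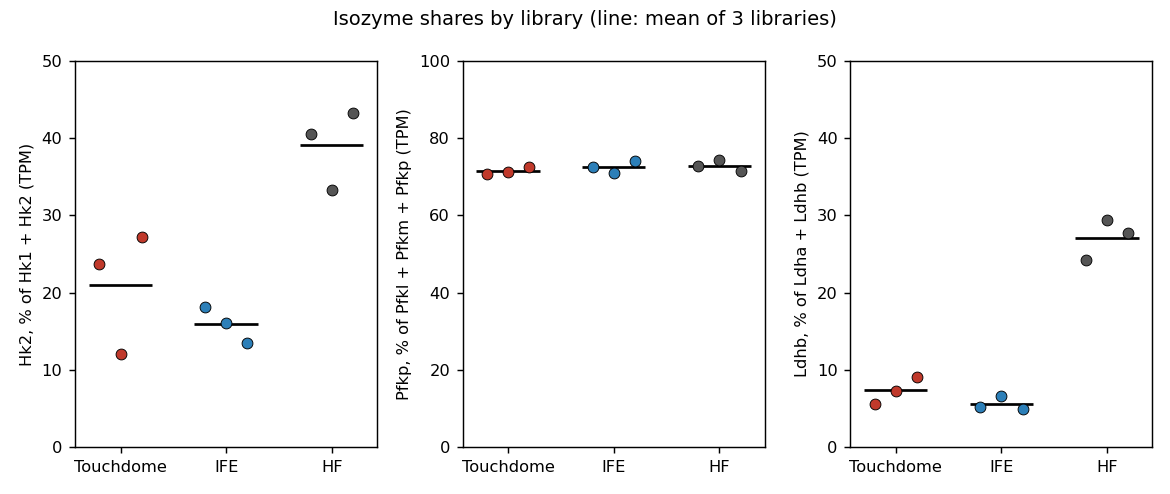
Share of one isozyme in the summed TPM of its family, in percent, for each library (points) with the group mean (line); the middle axis runs to 100 and the outer axes to 50. The Hk2 and Ldhb shares are highest in HF, and the Pfkp share is 70.8% to 74.4% in all 9 libraries.

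Pyruvate entry was read from Pdk1 (ENSMUSG00000006494), a kinase that shuts pyruvate dehydrogenase. The Touchdome libraries held 96.5, 93.2 and 92.9 CPM of Pdk1, the IFE libraries 86.8, 54.6 and 83.2 CPM and the HF libraries 67.0, 80.8 and 76.0 CPM. All 3 Touchdome libraries were above all libraries of the other groups, and IFE and HF overlapped. Pdk1 was the only one of the 10 genes whose Touchdome and IFE libraries did not overlap, which held for 14.6% of all genes in either direction. None of its comparisons passed, with 0.33 ± 0.16 for Touchdome minus IFE (SE, adjusted p = 0.485, edgeR), 0.34 ± 0.16 for Touchdome minus HF (adjusted p = 0.145) and -0.01 ± 0.16 for HF minus IFE (adjusted p = 0.976). The comparison of Touchdome with HF passed for Pdk1 with only those groups fitted (0.0294) and without IFE replicate 2 (0.0210), the library with the lowest Pdk1 level.

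**Figure D3:**
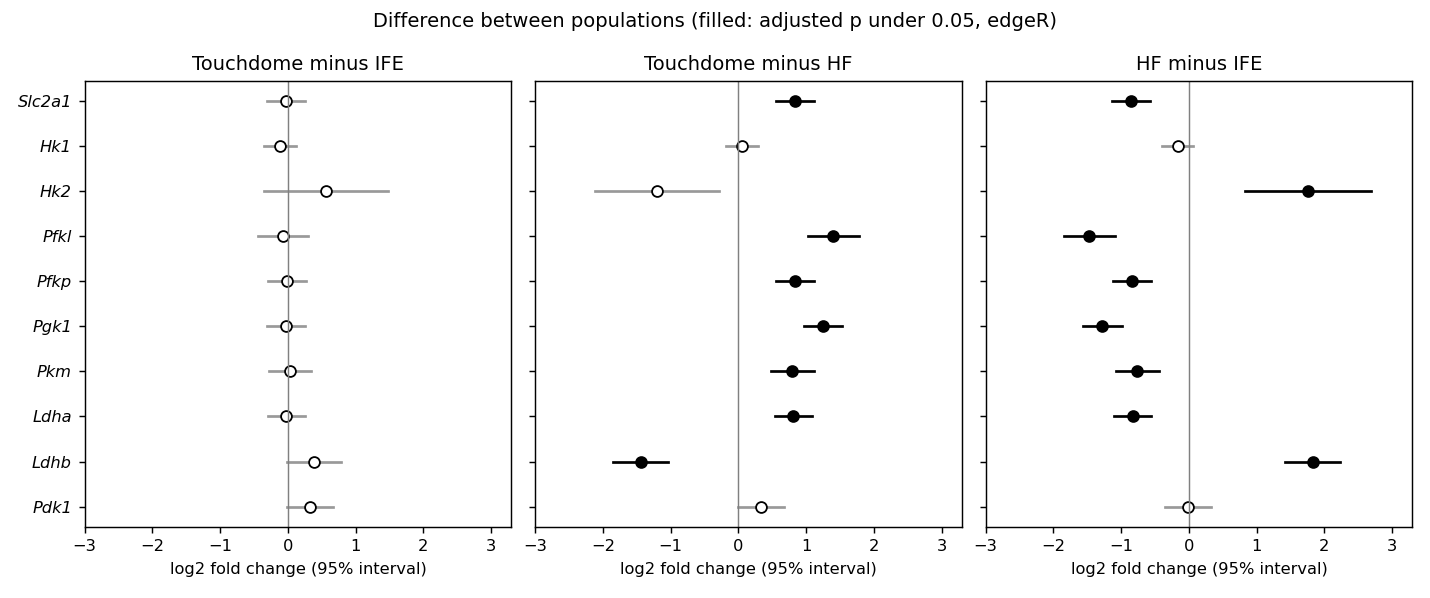
Log2 fold change of each gene with its 95% interval in the 3 comparisons; filled points passed an adjusted p under 0.05 (edgeR) and the line at 0 means no difference. Touchdome minus IFE has no filled point, and the right panel mirrors the middle one for 7 genes.

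The absence of calls between Touchdome and IFE does not show equal levels, so the intervals of the differences are given. For Slc2a1, Pfkp, Pgk1 and Ldha the 95% intervals of the log2 fold change ran from -0.30 to 0.26, -0.29 to 0.27, -0.31 to 0.25 and -0.29 to 0.25, all within the size of their difference from HF. Pkm had an interval of -0.28 to 0.35, Pfkl of -0.44 to 0.29 and Hk1 of -0.35 to 0.12. The genes that were high in HF were less tightly bounded. Ldhb had 0.38 ± 0.19 (SE) with an interval of -0.02 to 0.79 (adjusted p = 0.503, edgeR), and Hk2 had 0.56 ± 0.40 with -0.36 to 1.47 (adjusted p = 0.74).

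Likeness between the members was read over the individual libraries. Pearson's r of log2 CPM over the 9 libraries was 0.89 to 0.98 between the 6 genes that were low in HF. With Ldhb it was -0.96 to -0.90 and with Hk2 -0.78 to -0.58, while Pdk1 reached at most 0.45 with any other member. These libraries fall into the 3 groups, so r mainly carries the group difference and is a description with no test. Of all genes tested, those most like Pgk1 were Dlgap5, Cit and Kif23 (r = 0.99 each), those most like Pfkl were Smox, Gna14 and Kif4 (0.99 each), and those most like Ldhb were Pid1, Gucy2e and Slc25a29 (0.99 each).

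Several lists moved beside the members. Of 12 proliferation genes, 8 were higher in Touchdome than in HF and 10 were lower in HF than in IFE (edgeR), against 11.8% and 16.0% of all genes. In HF against IFE the calls of Mcm2, Pcna, Tyms and Mki67 were lost in 10, 7, 5 and 2 of 17 alternatives, and the other 6 were kept in all 17. The 12 genes summed to 1039 to 1538 CPM in Touchdome, 979 to 1393 CPM in IFE and 541 to 591 CPM in HF. Suprabasal keratinocyte markers summed to 6115 to 8128 CPM, 4006 to 5658 CPM and 1631 to 1933 CPM in the same order, although 1 of these 4 markers, Sbsn, was higher in HF than in IFE (1.36 ± 0.22, adjusted p = 0.000658, edgeR). Basal keratinocyte markers summed to 40360 to 44528 CPM, 52126 to 56499 CPM and 29902 to 31714 CPM, and sebocyte markers to 224 to 311 CPM, 228 to 293 CPM and 664 to 1481 CPM in the same order. Of the 5 basal markers, 2 were called lower in HF than in IFE (edgeR), against 16.0% of all genes. Krt15 and Col17a1 were near level, with means of 8676 and 7758 CPM in HF and 8190 and 8088 CPM in IFE. The part of these lists in the results for the members was not tested.

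The other genes of the pathway were taken as 4 lists with 38 genes, of which 34 passed the filter. In Touchdome against HF, 8 were higher and 5 lower, where 11.8% of all genes were higher and 12.8% lower. In HF against IFE 5 were higher and 11 lower, where 17.1% of all genes were higher and 16.0% lower. Between Touchdome and IFE 0 passed with edgeR and with limma, 4 had an unadjusted p under 0.05, as did 1605 of all 15046 genes, and 1 passed with DESeq2, the pyruvate carrier Slc16a7 (1.10, adjusted p = 0.0109). With the replicate number as a block, Slc16a7 passed (1.08, adjusted p = 0.0442, edgeR). With the block and only these 2 groups fitted, the lactate carrier Slc16a1 (1.23, 0.00137) and the kinase Pdk4 (1.30, 0.0311) passed instead. Without Touchdome replicate 1 Slc16a7 passed (1.31, 0.0335), and without Touchdome replicate 2 Pdk4 passed (1.91, 0.0362).

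Of 12 other glycolysis and glucose transport genes tested, 6 were lower in HF than in IFE and 6 higher in Touchdome than in HF, with Pfkm the single call in the opposite direction each time. Its call in Touchdome against HF, at -0.38 ± 0.13 (adjusted p = 0.0483, edgeR), was lost in 10 of 17 alternatives, among them leaving out any of the Touchdome or HF libraries or IFE replicate 3 (0.0588 to 0.150). Among the called genes of the list Eno1, which encodes enolase, showed the greatest difference, at 1.19 ± 0.12 for Touchdome minus HF (SE, adjusted p = 1.37e-05) and -1.16 ± 0.12 for HF minus IFE (adjusted p = 1.01e-05, edgeR). The mutase Pgam1 stood at -1.04 ± 0.13, the isomerases Tpi1 and Gpi1 at -0.84 ± 0.13 and -0.67 ± 0.11 for HF minus IFE. Gapdh and Aldoa, the highest of the list, were at -0.03 ± 0.14 and -0.02 ± 0.12 for Touchdome minus IFE. The values for Aldoa come from the 1 of 2 identifiers with this symbol that held more counts.

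Of 5 phosphofructokinase regulators, Pfkfb3, whose product makes the sugar phosphate that activates phosphofructokinase, was lower in HF in both comparisons. Its libraries stood at 49.9, 39.2 and 31.6 CPM in Touchdome, 58.8, 34.3 and 38.3 CPM in IFE and 15.3, 7.59 and 11.7 CPM in HF, with no overlap between HF and the rest. The log2 fold change was 1.78 ± 0.28 for Touchdome minus HF (SE, adjusted p = 0.000986, edgeR) and -1.90 ± 0.28 for HF minus IFE (adjusted p = 0.000428), and Pfkfb3 and Pfkfb2 stood at -0.12 ± 0.27 and -0.08 ± 0.25 for Touchdome minus IFE. Tigar, which opposes the same step, was lower in HF than in IFE (-0.95 ± 0.30, adjusted p = 0.0265, edgeR). That call was lost without IFE replicate 1 or 2 or HF replicate 1 or 2 (0.0508 to 0.0911), and on TPM (limma, 0.102 and 0.105).

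Lactate carriers divided as lactate dehydrogenase did. Slc16a3, which encodes MCT4, the exporter of highly glycolytic cells, stood at 56.3, 37.5 and 32.7 CPM in Touchdome, 48.9, 44.9 and 34.9 CPM in IFE and 2.24, 1.79 and 1.84 CPM in HF. HF was far below both other groups, with 4.41 ± 0.25 for Touchdome minus HF (SE, adjusted p = 1.73e-07, edgeR) and -4.42 ± 0.25 for HF minus IFE (adjusted p = 1.03e-07). Slc16a7, which encodes the high-affinity carrier MCT2, went the other way, at 5.82, 9.83 and 9.71 CPM in Touchdome, 4, 2.74 and 4.96 CPM in IFE and 21.4, 28.0 and 29.8 CPM in HF. Its log2 fold change was -1.65 ± 0.26 for Touchdome minus HF (adjusted p = 0.000514) and 2.73 ± 0.27 for HF minus IFE (adjusted p = 8.66e-06). On TPM the first of these calls was lost (limma, 0.290 and 0.302).

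Slc16a1, which encodes MCT1, stood at 42.0, 17.5 and 40.4 CPM in Touchdome, 21.1, 5.42 and 19.2 CPM in IFE and 45.5, 70.0 and 75.4 CPM in HF, highest in HF with no overlap. It was higher in HF than in IFE by 2.04 ± 0.53 (adjusted p = 0.0197, edgeR), a call lost without HF replicate 2 or 3 (0.0524 and 0.0612) and with no low-count filter (0.0599). Bsg, the chaperone of MCT1 and MCT4, was lower in HF than in IFE (-0.54 ± 0.12, adjusted p = 0.00353, edgeR). Bsg and Slc16a1, the highest of the list by mean CPM over all 9 libraries, stood at -0.22 ± 0.12 and 1.11 ± 0.52 for Touchdome minus IFE, which did not pass. Slc16a1 owes its rank to HF, and it passed in Touchdome against IFE with the replicate block and only those groups fitted, as given above.

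Around pyruvate dehydrogenase, the kinases Pdk2 and Pdk4 were unlike Pdk1. Pdk2 stood at 14.4, 18.3 and 24.3 CPM in Touchdome, 12.7, 21.5 and 16.7 CPM in IFE and 69.8, 81.0 and 70.6 CPM in HF, and was higher in HF by 2.12 ± 0.21 over IFE (SE, adjusted p = 1.05e-05, edgeR) and at -1.96 ± 0.21 for Touchdome minus HF (adjusted p = 3.27e-05). Pdk4 stood at 14.1, 6.7 and 36.8 CPM in Touchdome, 6.42, 5.14 and 8.37 CPM in IFE and 85.2, 77.9 and 83.2 CPM in HF, with Touchdome replicate 3 nearest to HF. It was 3.61 ± 0.56 higher in HF than in IFE (adjusted p = 0.0017, edgeR). Its call in Touchdome minus HF, at -2.10 ± 0.52 (adjusted p = 0.022), was lost in 5 of 17 alternatives. These were no low-count filter (0.0660), only those groups fitted (0.0703), and leaving out Touchdome replicate 1, HF replicate 1 or HF replicate 3 (0.0579 to 0.0779). Of the complex itself, Pdha1 was called in Touchdome minus HF, at -0.37 ± 0.10 (adjusted p = 0.0179, edgeR). That call was lost without Touchdome replicate 1 or 2 or HF replicate 2 or 3 (0.0525 to 0.0751), and with limma on log2(TPM + 0.1) (0.0509). The phosphatase Pdp1 was lower in HF than in IFE (-0.57 ± 0.20, adjusted p = 0.0468, edgeR), a call lost in 13 of 17 alternatives. Among them were limma on TPM (0.267 and 0.268) and the replicate block (0.0589). The call was also lost without any of the HF and IFE libraries other than HF replicate 3, or without Touchdome replicate 1 or 2 (0.0526 to 0.154). Pdha1 and Dld, the highest of the list, stood at -0.26 ± 0.10 and -0.10 ± 0.10 for Touchdome minus IFE, which did not pass.

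**Figure D4:**
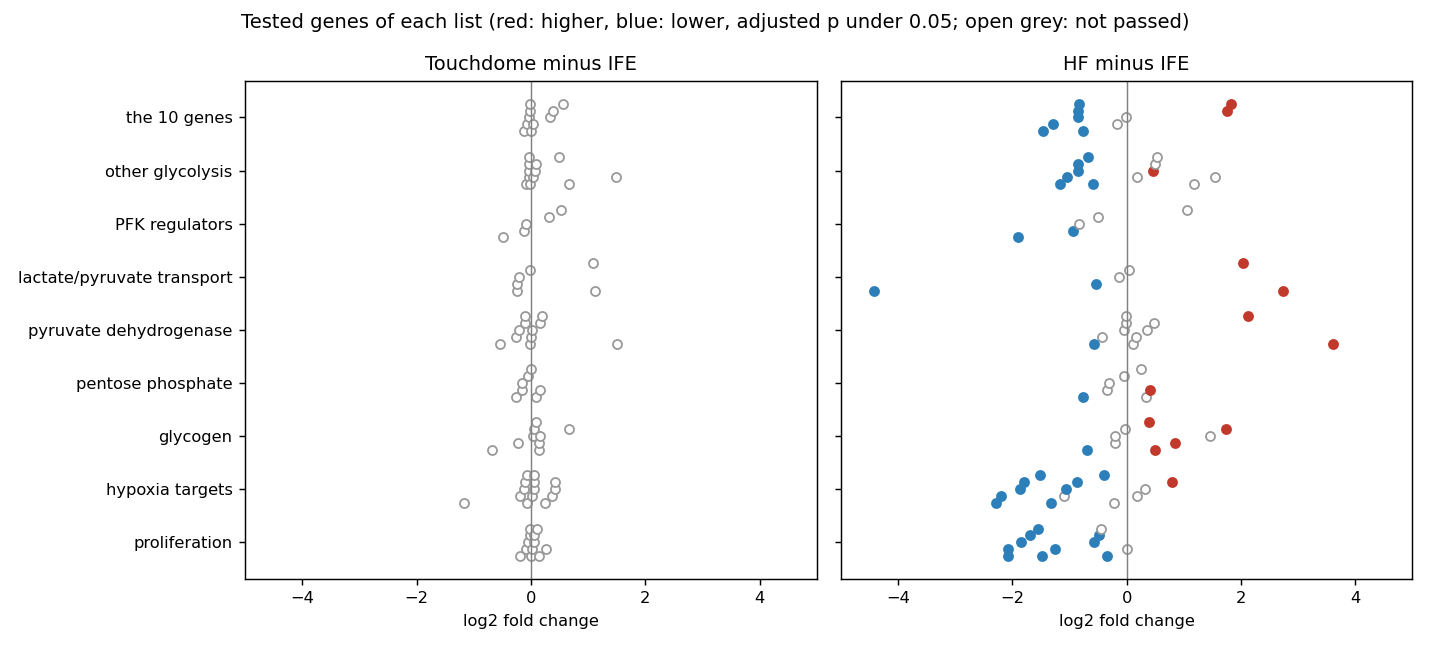
Log2 fold change of every tested gene of 9 lists in Touchdome minus IFE (left) and HF minus IFE (right); red and blue points passed an adjusted p under 0.05 (edgeR) as higher or lower, and open points did not. Vertical offsets within a list only separate the points; the left panel has no coloured point, and Slc16a3 and Pdk4 are the outermost on the right.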

How the data were processed

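Poly(A) RNA was measured in 9 libraries, 3 per population. In the deposited table, the authors give each gene an expected count per library, an estimate of its reads without scaling for depth. The TPM values deposited by the authors are scaled for transcript length and carry no depth. RSEM 1.3.3, STAR 2.7.9a and DESeq2 1.38.2 are named, with the build mm39, per the submitters' processing notes. What each did, and whether counting used strand, is not given in the sources used here. Symbols came from a GENCODE table, and identifiers without one held 0.673% to 2.13% of the counts. 

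Expected counts were rounded and filtered with filterByExpr (minimum count 10, minimum total 15). The robust quasi-likelihood test of edgeR 4.0.16 in R 4.3.3 was fitted to all 9 libraries with TMM scaling, without a replicate block. P-values were adjusted by Benjamini-Hochberg over 15046 genes, with a threshold of 0.05. Intervals are 95% intervals from the fit, and levels are CPM at the TMM-scaled library size. Alternatives used DESeq2 1.42.0, limma 3.58.1 on log2(TPM + 1) and log2(TPM + 0.1), other filters and scaling, a 2-group fit, the replicate number as a block, and each library left out. The fits were tested on simulated counts. The block with only Touchdome and IFE fitted was added after seeing the data. The members and lists were chosen with earlier results of these data known. All members are named, with called genes of the other lists (up to 4 by p, otherwise the 2 with the highest CPM). One called gene is not reported here. Fold changes of TPM are on the log2(value + pseudocount) scale.

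Libraries with the same number in Touchdome and IFE deviated weakly together from their group means (r = 0.15, 0.17 and 0.20 over genes). The numbers may thus pair these groups, which the labels do not state, and the main test used no pairing. With HF, r was -0.03 to 0.07, and no pairing by number was seen. Within groups, no pair of libraries agreed within sampling noise (chi-square per degree of freedom 16.8 to 73.6). The highest values, 73.6 and 69.5, were those of IFE replicate 2 with IFE replicates 1 and 3, which gave 21.2 with each other.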

Additional observations from a re-analysis of the deposited data

How the results depend on the processing

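All 15 called differences of members kept their direction and call in each of the 17 alternatives. Touchdome against IFE gave 0 called members in all 18, the added block included. The other pathway genes called there became 1 with DESeq2, with no low-count filter and with the replicate block, 2 with the replicate block and only those groups fitted, and 0 to 1 with a library left out. Over all genes, the calls there were 184 higher and 12 lower in the main fit. They were 446 and 84 with DESeq2, 261 and 49 with no low-count filter, and 282 and 67 with the replicate block. With the block and only those groups fitted they were 372 and 134. For HF no pairing by number was seen. The replicate block moved Hk2 in Touchdome minus HF to -1.28 (adjusted p = 0.00169, edgeR), which made 8 members called, and changed no other call of a member.

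Changes of sign concerned 10 differences that did not pass and were at most 0.17 in size. On log2(TPM + 1) and log2(TPM + 0.1), Touchdome minus IFE became 0.12 and 0.12 for Slc2a1, 0.0063 and 0.0065 for Hk1, 0.11 and 0.12 for Pfkl, 0.067 and 0.068 for Pfkp, 0.11 and 0.11 for Pgk1, and 0.12 and 0.12 for Ldha. Hk1 became -0.035 and -0.036 in Touchdome minus HF and 0.042 and 0.042 in HF minus IFE, where Pdk1 became 0.24 and 0.25. On TPM the median of all genes shifted too, to 0.13 and 0.15 in Touchdome minus IFE, -0.06 and -0.07 in Touchdome minus HF, and 0.19 and 0.21 in HF minus IFE, and calls in the last were 2989 higher and 1209 lower (2916 and 1219 with 0.1) against 2571 and 2401. The stricter low-count filter gave 0.0038 for Slc2a1, 0.019 for Pfkp and 0.0047 for Ldha in Touchdome minus IFE, and 0.026 for Pdk1 in HF minus IFE. With only the groups compared, Pfkp gave 0.0071 and Pdk1 0.0027, and the added replicate block gave 0.0012 for Pfkp. Pdk1 in HF minus IFE was 3.59e-05 with RLE size factors and 0.0069 with the replicate block. With a library left out, Touchdome minus IFE ranged from -0.11 to 0.0498 for Slc2a1, -0.20 to 0.0444 for Pfkl, -0.13 to 0.0697 for Pfkp, -0.13 to 0.0786 for Pgk1, -0.0682 to 0.16 for Pkm and -0.14 to 0.0471 for Ldha, and Pdk1 in HF minus IFE from -0.19 to 0.11. The cause was not tested.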

Other observations

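Genes of glycogen enzymes were called in both directions between HF and IFE. Of 9 glycogen enzymes, 4 were higher and 1 was lower in HF than in IFE (edgeR), against 17.1% and 16.0% of all genes. Touchdome against HF had 3 lower and 1 higher, against 12.8% and 11.8% of all genes. The phosphorylases Pygb and Pygl, which release glucose units from glycogen, stood at 0.85 ± 0.12 and 0.50 ± 0.10 (SE) on the log2 scale for HF minus IFE, while Ugp2, which makes the donor for glycogen synthesis, stood at -0.69 ± 0.11. Pcx, which makes oxaloacetate from pyruvate, was higher in HF than in IFE by 1.11 ± 0.21 (adjusted p = 0.00122, edgeR). Of 7 pentose phosphate enzymes, 1 was higher and 1 lower in HF than in IFE (edgeR), near the 17.1% and 16.0% of all genes. Pgd was higher (0.41 ± 0.13, adjusted p = 0.0258), a call lost without IFE replicate 1 or 3 or HF replicate 2 (0.0618 to 0.122). G6pdx, the entry enzyme of the pathway, was lower in HF than in IFE by counts (-0.76 ± 0.13, adjusted p = 0.000493), a call lost on TPM (-0.24 and -0.25, limma, adjusted p = 0.239 and 0.235).

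Genes known to respond to low oxygen, other than those of glycolysis, were read from 14 tested genes. In Touchdome against HF, 8 were higher and 1 was lower (edgeR), against 11.8% and 12.8% of all genes. In HF against IFE 9 were lower and 1 was higher, against 16.0% and 17.1% of all genes. Fam162a, a mitochondrial protein gene, stood at 94.4, 55.6 and 58.4 CPM in Touchdome, 65.8, 73.9 and 62.6 CPM in IFE and 13.2, 15.1 and 13.2 CPM in HF, with -2.29 ± 0.19 for HF minus IFE (SE, adjusted p = 2.39e-06). Higd1a stood at -1.80 ± 0.21 and Kdm3a, a histone demethylase gene, at -0.86 ± 0.12. The 1 gene called in the other direction in both comparisons, Ddit4, was higher in HF than in IFE by 0.80 ± 0.14 (adjusted p = 0.00075) and was named after its values were seen. Its call in Touchdome against HF (-0.44 ± 0.14, adjusted p = 0.0364, edgeR) was lost on TPM (0.0511 and 0.0540, limma) and without any Touchdome library or HF replicate 1 or 3 (0.0786 to 0.184). Ndrg1 and Mxi1 had the same signs as Ddit4 and did not pass in either comparison. Egln1, which encodes an oxygen sensor of the hypoxia-inducible factors, stood at 216, 199 and 155 CPM in Touchdome, 191, 208 and 154 CPM in IFE and 81.4, 69.0 and 77.9 CPM in HF, lower in HF than in IFE (-1.27 ± 0.15, adjusted p = 3.14e-05). Mycl was lower in HF too (-1.37 ± 0.19, adjusted p = 0.000119). The list that holds Egln1 and Mycl was mixed, with 3 of 12 genes higher and 3 lower in HF than in IFE (edgeR). The shares of all genes were 17.1% and 16.0%. Arnt and Max were among the higher, with means of 92.8 and 55.4 CPM in HF and 70.2 and 38.8 CPM in IFE. Both calls were kept in all 17 alternatives.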
